A study of Mus musculus with 9 samples.

Results

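The circadian clock genes described here are the 10 genes Per1, Per2, Per3, Cry1, Cry2, Arntl, Clock, Nr1d1, Dbp and Tef. They were found by matching the gene identifiers of the deposited tables to these symbols, and each of the 10 matched 1 of the 55487 identifiers. RNA was measured in naive CD4+ T cells, called TN cells, from lymph nodes of C57BL6/J mice, wild type in genotype. Group 1 was freshly prepared cells with no treatment. Group 2 was the same cell type kept in culture for 20 h without IL-1b. Group 3 was kept in culture for 20 h with 10 ng/mL of recombinant IL-1b, an inflammatory cytokine. Each group had 3 libraries of polyA RNA. The sources used here give neither the animals' age or sex, nor the time of day at which cells were taken, nor the origin of the replicates. The p-values therefore measure the spread between these libraries, which may be only technical.

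The clock is a feedback loop of transcription factors that runs in nearly every cell. CLOCK and ARNTL (also called BMAL1) pair up and switch on genes through E-box sites, among them the Per and Cry genes, whose proteins then enter the nucleus and inhibit the same pair. A side loop is formed by NR1D1 (REV-ERB alpha), an E-box target that represses Arntl, while the related ROR receptors activate it. DBP and TEF are output factors of the PAR bZIP family that act on D-box sites, and Dbp itself is a direct target of CLOCK and ARNTL. T cells carry this loop, and outside the clock Per1 and Per2 can also be induced quickly through CREB sites and by glucocorticoids.

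Promoter sequences were looked up because the members' places in this loop are defined by E-box and D-box sites. The RefSeq promoter table for GRCm38.p6 held 14 promoters of 9 of the 10 members; those printed for Per1 and Tef lie within the annotated span of the gene, before a start inside it. In the 250 bases before each start, both strands were searched for the E-box CACGTG, the near E-box CACGTT, the D-box forms TTATGTAA and TTACGTAA, the NR1D1 and ROR site cores TAGGTCA and TGGGTCA, and the CREB site TGACGTCA. CACGTG was found in Per1 (at -166 from the start), Tef (at -127 and, for a second start, -138) and Cry1 (at -60), and 6.02% of all 32851 promoters hold it. TTATGTAA was found in Per3 only among the members, at -205 and -158, against 0.819% of all promoters. CACGTT, held by 3.85%, was found on the strand opposite to the gene's in Cry1 (-79), Cry2 (-166) and Nr1d1 (-28). The windows of Arntl, Clock and Dbp held none of the 7 motifs. The windows of Per1, Tef, Cry1 and Per3 are printed 5' to 3' on the gene's strand, with the matched letters in capitals (in Cry1 the near E-box reads AACGTG on this strand), because they hold the CACGTG and TTATGTAA matches. A match describes letters only.
Per1, chr11:69098699-69098948, plus strand: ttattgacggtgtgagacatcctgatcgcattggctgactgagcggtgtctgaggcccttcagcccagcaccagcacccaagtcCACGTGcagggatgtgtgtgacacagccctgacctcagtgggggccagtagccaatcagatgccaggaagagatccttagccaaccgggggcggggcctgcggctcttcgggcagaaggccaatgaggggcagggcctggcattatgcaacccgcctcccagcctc
Tef, chr15:81802423-81802672, plus strand: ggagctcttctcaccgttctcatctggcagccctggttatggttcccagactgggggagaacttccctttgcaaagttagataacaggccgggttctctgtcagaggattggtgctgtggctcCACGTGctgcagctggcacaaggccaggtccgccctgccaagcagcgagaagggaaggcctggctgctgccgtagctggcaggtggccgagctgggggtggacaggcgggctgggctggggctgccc
Cry1, chr10:85185055-85185304, minus strand: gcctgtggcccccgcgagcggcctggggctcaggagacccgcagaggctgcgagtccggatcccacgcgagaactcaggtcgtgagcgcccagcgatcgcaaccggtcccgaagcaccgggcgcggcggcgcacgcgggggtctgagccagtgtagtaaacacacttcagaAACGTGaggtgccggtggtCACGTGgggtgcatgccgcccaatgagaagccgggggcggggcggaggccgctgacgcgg
Per3, chr4:151044666-151044915, minus strand: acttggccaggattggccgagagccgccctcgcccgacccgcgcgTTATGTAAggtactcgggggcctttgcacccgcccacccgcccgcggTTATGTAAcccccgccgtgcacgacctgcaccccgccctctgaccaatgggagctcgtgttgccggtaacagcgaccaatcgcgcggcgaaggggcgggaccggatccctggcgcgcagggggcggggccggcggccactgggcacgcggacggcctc

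Library totals ran from 13518814 to 23056686 counts, so 3 counts, taken as the floor of detection, equal 0.13 to 0.222 CPM. All 10 members passed the filter on low counts, which left 13043 genes. Levels are given as CPM, the counts of a gene scaled to a common library size by the TMM method, which assumes that most genes do not differ. Differences are log2 fold changes with their standard errors, and the p-values from edgeR's quasi-likelihood test were adjusted by Benjamini-Hochberg over all 13043 genes, with 0.05 as the threshold. The summed level of 9 naive CD4+ T cell markers was 5980 to 6070 CPM in fresh, 5800 to 5820 in cultured and 6090 to 6170 in IL-1b libraries. B cell markers (10 genes) summed to 67.2 to 88.1 CPM in fresh libraries, 5.6 to 7.5 in cultured and 4.63 to 6.75 with IL-1b. Neutrophil markers (7 genes) summed to 9.97 to 17.1 CPM in fresh libraries and to 0.0652 to 0.371 in cultured ones, with S100a8, Retnlg and Ltf at 0, and to at most 0.431 with IL-1b. The part of these cells in the clock genes' differences was not tested. In such bulk samples fewer cells of a type and less RNA per cell cannot be told apart.

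Between fresh and cultured cells the clock genes moved in both directions. Per3, Cry1, Arntl and Dbp rose, and Per1, Per2, Cry2 and Tef fell, so that 8 of the 10 passed the test, where 58.2% of all genes did (29.4% higher and 28.9% lower). Clock and Nr1d1 did not pass. The members' share is thus read against a transcriptome in which most genes differed. Per2 fell 3.17-fold and Per3 rose 2.83-fold, and the other members differed by 1.12-fold (Clock) to 1.53-fold (Nr1d1). The members' median absolute log2 difference was 0.45, against 0.41 for all genes, and their median signed difference was -0.04, against 0.00. CPM ranges of the fresh and cultured groups did not overlap for any of the 10, which also held for 65.5% of all genes. When each library's trend of counts on GC content and transcript length was removed (the GC and length correction), 6 of the 10 passed, as did 7106 of the 13043 genes, and Per1 and Tef no longer did.

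Adding IL-1b to the culture went with fewer and smaller differences. Against culture alone, 4 of 10 members passed the test, where 28.9% of all genes did (15.6% higher and 13.3% lower). Dbp rose, and Per1, Per2 and Tef fell, but after GC and length correction 1 member passed, Dbp, as did 2621 of the 13043 genes. The median absolute log2 difference was 0.19 for the members and 0.20 for all genes. Groups did not overlap for 3 members, Per1, Dbp and Tef, and for 40.3% of all genes. IL-1b-treated against fresh cells gave 8 of 10 members called, 4 higher and 4 lower, with 65.5% of all genes called (32.9% higher and 32.6% lower). Groups did not overlap there for 9 members and for 68.1% of all genes. The 3 comparisons share libraries and are not independent.

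**Figure D1:**
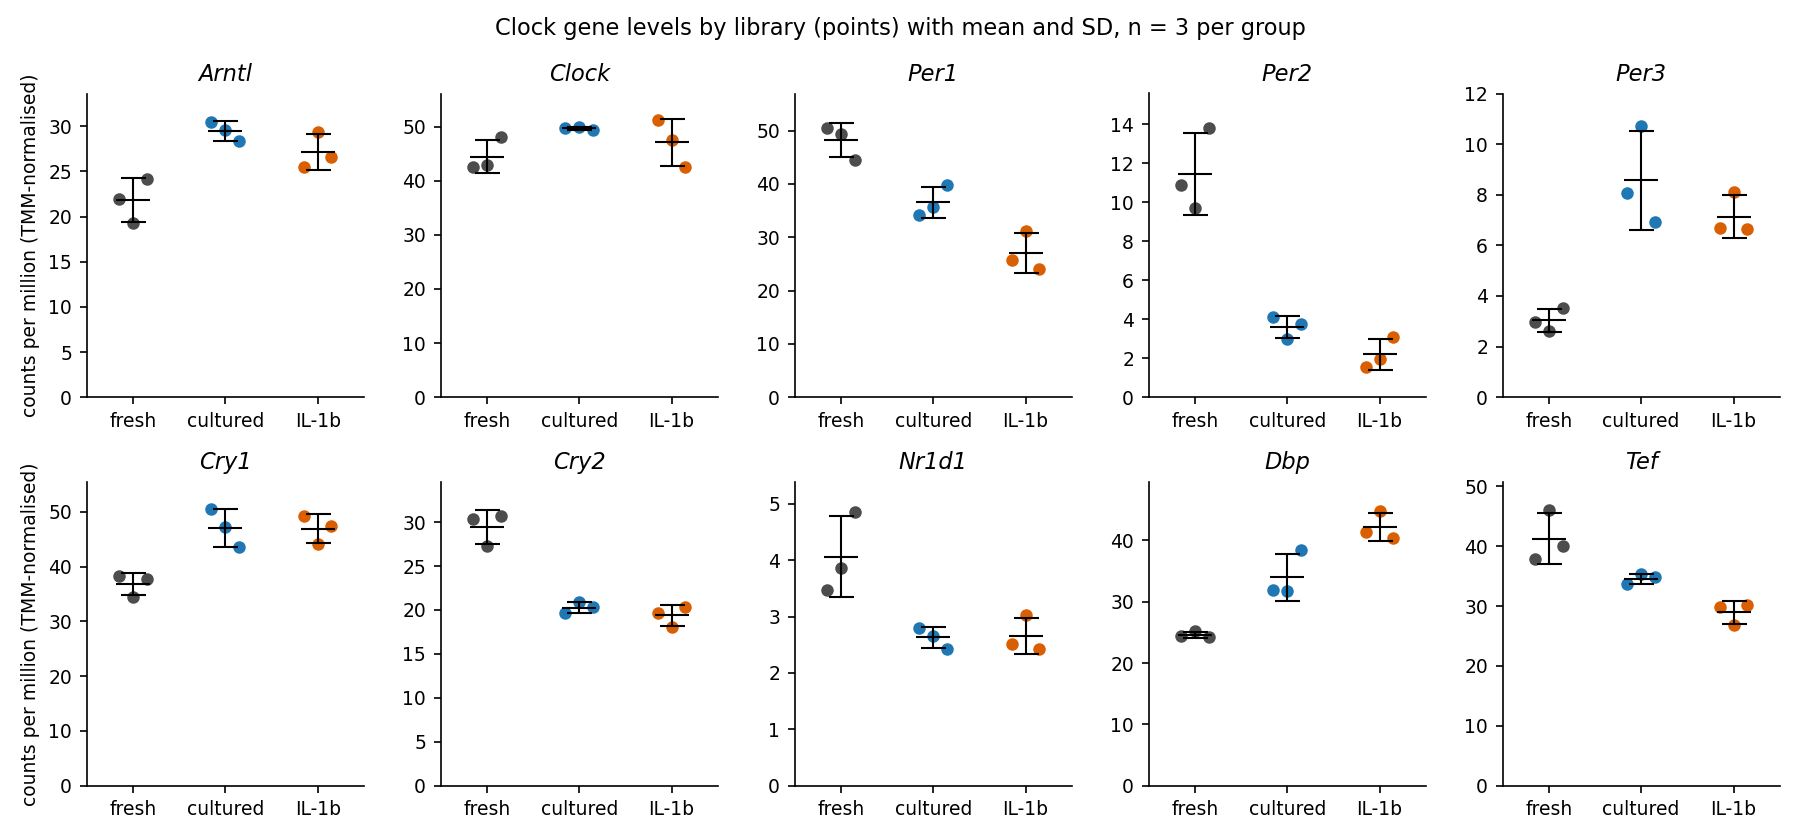
TMM-normalised CPM of the 10 clock genes (vertical axes, each from 0) in fresh, cultured and IL-1b libraries. Points are libraries, the black mark and bar the mean and SD of 3; Per2 is highest and Per3 lowest in fresh cells, while Dbp steps up and Per1 and Tef step down from group to group on this scale (Per1 and Tef are at 0.02 and 0.01 for cultured minus fresh after GC and length correction).

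Of the activators, Arntl rose in culture and Clock did not pass the test. In mm10, Arntl (ENSMUSG00000055116) lies at chr7:113207465-113314126, on the plus strand. Arntl, which encodes the partner of CLOCK, stood at 21.9, 19.3 and 24.1 CPM in fresh libraries, 30.5, 29.6 and 28.3 in cultured libraries and 25.5, 29.4 and 26.6 with IL-1b. All 3 fresh libraries lay below the 6 others, while the cultured and IL-1b ranges overlapped. The cultured mean exceeded the fresh mean by 0.44 ± 0.10 on the log2 scale (adjusted p = 0.000581), and the difference between IL-1b and culture alone was -0.12 ± 0.10 (adjusted p = 0.411, 95% interval -0.31 to 0.07). The direction of Arntl depended on the scale: IL-1b minus fresh was 0.32 ± 0.10 (adjusted p = 0.00746) with TMM but -0.31 on log2(TPM + 1), a per-length scale on which the median of all genes was -0.45, and it was not called without fresh replicate 2 (adjusted p = 0.054). For cultured minus fresh the log2(TPM + 1) value was 0.10 and was not called.

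With TMM scaling Clock had the smallest difference of the 10 in culture. After GC and length correction it was 0.13, while Per1 was at 0.02 and Tef at 0.01. Clock (ENSMUSG00000029238) lies at chr5:76209868-76304792, on the minus strand, and encodes the activator that pairs with ARNTL. Its levels were 42.5, 42.9 and 48.0 CPM in fresh, 49.8, 49.9 and 49.4 in cultured and 51.2, 47.6 and 42.5 in IL-1b libraries. The 3 cultured values lay just above the fresh ones, and the IL-1b values spanned nearly the whole range. The difference between cultured and fresh cells was 0.16 ± 0.08 (adjusted p = 0.0723, 95% interval 0.01 to 0.31). It passed the threshold in a fit of only those 2 groups (adjusted p = 0.0287) and without fresh replicate 3 or IL-1b replicate 3 (adjusted p down to 0.0296), and turned to -0.13 on log2(TPM + 1), where the median of all genes was -0.19. With IL-1b against culture alone, Clock differed by -0.08 ± 0.08 (adjusted p = 0.518).

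The proteins of the 3 Per genes are the repressors that set the pace of the loop. With TMM scaling Per1 and Per2 fell in culture and Per3 rose. Per1 (ENSMUSG00000020893) lies at chr11:69095217-69109960, on the plus strand. Per1 stood at 50.5, 49.4 and 44.6 CPM in fresh libraries, 34.1, 35.7 and 39.9 in cultured libraries and 25.7, 31.2 and 24.1 with IL-1b. The 3 groups formed 3 steps with no overlap. It fell by 0.40 ± 0.09 on the log2 scale in culture (adjusted p = 0.000738), and by a further 0.44 ± 0.10 with IL-1b (adjusted p = 0.00136). Per1 has the highest GC content of the 10, at 58.8%. After GC and length correction the Per1 difference was 0.02 for cultured minus fresh (adjusted p = 0.851), -0.18 for IL-1b minus cultured (adjusted p = 0.192) and -0.16 for IL-1b minus fresh (adjusted p = 0.135). None of the 3 passed the threshold under that correction.

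Per2 had the widest differences of the 10 with TMM scaling, while after GC and length correction Per3 was wider for cultured minus fresh (1.74 against -1.25). Per2 (ENSMUSG00000055866) lies at chr1:91415982-91459324, on the minus strand. It stood at 10.9, 9.68 and 13.8 CPM in fresh libraries, 4.11, 2.97 and 3.74 in cultured libraries and 1.56, 1.94 and 3.09 with IL-1b. Every fresh library lay above every cultured one, and the highest IL-1b library lay above the lowest cultured library. Per2 fell by 1.66 ± 0.23 on the log2 scale in culture (adjusted p = 1.56e-06), and IL-1b minus fresh was -2.38 ± 0.24 (adjusted p = 1.19e-08), a 5.21-fold lower level. Cultured minus fresh was -1.25 after GC and length correction and was still called, and with each library's effective length as an offset it was -2.91 (IL-1b minus fresh -3.63), values that take in the short length of fresh replicate 1 given next and are no measure of the drop. The drop from culture to IL-1b was less firm, at -0.72 ± 0.26 (adjusted p = 0.0434): it rested on 171 counts in the cultured group and 99 with IL-1b. It passed in only 2 of the 9 fits that left out a library (adjusted p from 0.00721 to 0.183), and neither with limma-voom (adjusted p = 0.105) nor after GC and length correction (-0.44, adjusted p = 0.261).

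The per-length level of Per2 differed from its counts in 1 library. The effective length that RSEM gave the gene was 988 bases in fresh replicate 1 and 5593 to 5620 bases in the 8 other libraries. Its TPM was 17.1 in that library, against 2.69 and 3.82 in fresh replicates 2 and 3, while its counts were 263, 163 and 196. The fresh libraries thus spanned 9.68 to 13.8 CPM and 2.69 to 17.1 TPM. In cultured libraries its TPM was 0.97, 0.70 and 0.88, and with IL-1b 0.30, 0.37 and 0.58, below every fresh value on either scale.

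**Figure D2:**
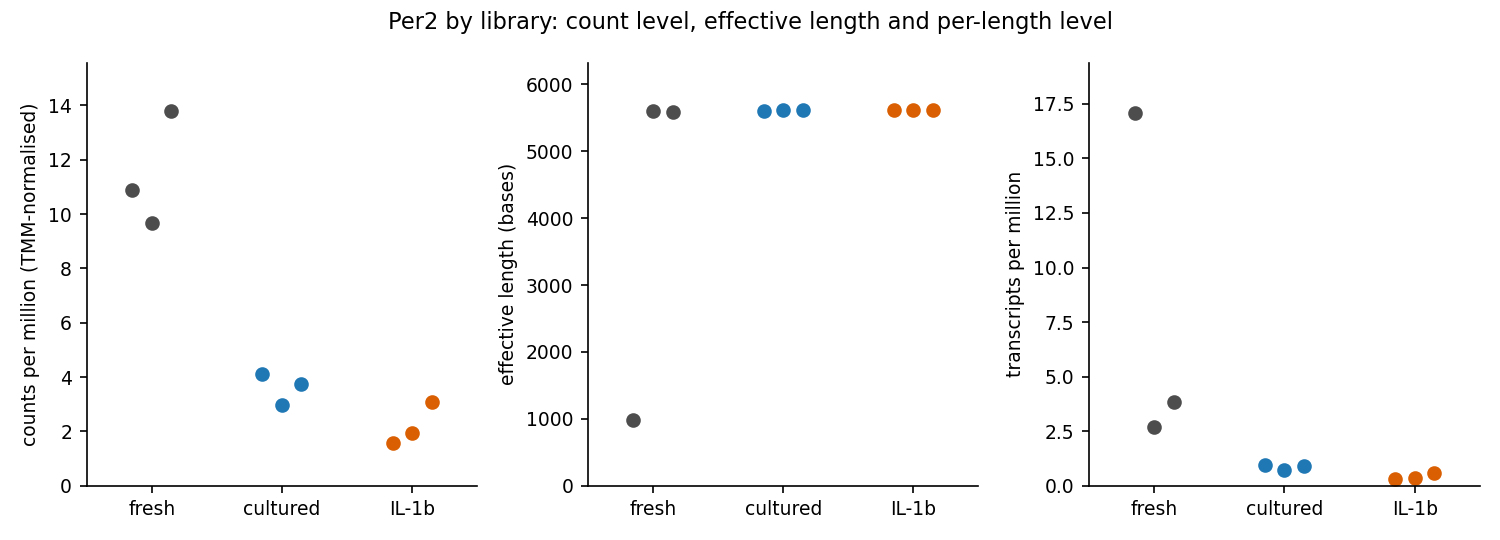
Per2 in each library as TMM-normalised CPM, effective length in bases and TPM (vertical axes from 0; points are libraries, 3 per group). Fresh replicate 1 sits with the other fresh libraries by count, at 10.9, but has an effective length of 988 bases and a TPM of 17.1.

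Per3 moved opposite to Per1 and Per2 in culture. Per3 (ENSMUSG00000028957) lies at chr4:151003652-151044665, on the minus strand. It stood at 2.98, 2.61 and 3.52 CPM in fresh libraries, 8.08, 10.7 and 6.91 in cultured libraries and 6.67, 8.11 and 6.64 with IL-1b. The fresh values were separate from all the others, while cultured and IL-1b values overlapped. The rise in culture was 1.5 ± 0.21 (adjusted p = 2.4e-06), and 1.74 after GC and length correction. IL-1b against culture alone gave -0.26 ± 0.20 (adjusted p = 0.365, 95% interval -0.66 to 0.13). It is a low gene, with 166 counts over the 3 fresh libraries and 408 over the cultured ones, and its promoter window is the one with 2 copies of the D-box form shown above.

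The Cry genes, which encode the other partner of the repressor complex, moved apart in culture. Cry1 (ENSMUSG00000020038) lies at chr10:85131700-85185064, on the minus strand. Cry2 (ENSMUSG00000068742) lies at chr2:92403646-92434043, on the minus strand. Cry1 stood at 38.3, 34.5 and 37.7 CPM in fresh libraries, 50.5, 47.2 and 43.5 in cultured libraries and 49.3, 44.1 and 47.5 with IL-1b. Cry2 stood at 30.4, 27.3 and 30.7 CPM in fresh, 19.7, 20.9 and 20.3 in cultured and 19.7, 18.1 and 20.3 in IL-1b libraries. For both genes the fresh libraries were separate from the 6 others, with Cry1 lower and Cry2 higher in fresh cells. Cry1 rose by 0.35 ± 0.08 (adjusted p = 0.000497) and Cry2 fell by 0.54 ± 0.10 (adjusted p = 4.25e-05) between fresh and cultured cells. The Cry2 value was -0.31 after GC and length correction and was still called. With IL-1b neither passed the test against culture alone, at 0.00 ± 0.08 for Cry1 (95% interval -0.15 to 0.15) and -0.06 ± 0.10 for Cry2 (95% interval -0.26 to 0.13). Cry1 in IL-1b against fresh cells was 0.35 ± 0.08 with TMM (adjusted p = 0.000436) and turned to -0.08 on log2(TPM + 1), where the median of all genes was -0.45. It was 0.18 by library size alone. Cry2 in that comparison was -0.60 ± 0.10 (adjusted p = 8.35e-06), and -0.21 after GC and length correction (adjusted p = 0.0607).

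Nr1d1 (ENSMUSG00000020889) lies at chr11:98767932-98775333, on the minus strand. This repressor of Arntl was a low gene, at 3.47, 3.86 and 4.86 CPM in fresh libraries, 2.80, 2.66 and 2.43 in cultured libraries and 2.52, 3.02 and 2.42 with IL-1b. The fresh values lay above all others, and the cultured and IL-1b values overlapped. The difference of -0.62 ± 0.28 in culture missed the threshold with edgeR (adjusted p = 0.0607) and passed it with DESeq2 (adjusted p = 0.0496), by library size alone (adjusted p = 0.0422) and on log2(TPM + 1) (adjusted p = 0.0144). After GC and length correction it was -0.39 (adjusted p = 0.253). It rested on 218 counts in fresh and 124 in cultured cells, and the interval of -1.16 to -0.08 is wide. IL-1b against culture alone gave 0.01 ± 0.29 (95% interval -0.55 to 0.57). Exons of Nr1d1 share 263 bases with those of Thra, a thyroid hormone receptor gene on the opposite strand, and the strand setting of the counting is not given in the sources used here, so reads there cannot be assigned with certainty. Thra moved the other way in culture, by 0.20 ± 0.08 (adjusted p = 0.0331).

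Dbp and Tef, the PAR bZIP output factors, moved in opposite directions at both steps. Dbp (ENSMUSG00000059824) lies at chr7:45705088-45710203, on the plus strand. Tef (ENSMUSG00000022389) lies at chr15:81802421-81826863, on the plus strand. Dbp stood at 24.4, 25.2 and 24.2 CPM in fresh libraries, 31.9, 31.7 and 38.4 in cultured libraries and 41.4, 44.8 and 40.5 with IL-1b. Tef stood at 37.8, 46.0 and 40.1 CPM in fresh, 33.7, 35.3 and 34.8 in cultured and 29.9, 26.8 and 30.3 in IL-1b libraries. In neither gene did any 2 of the groups overlap. Dbp rose by 0.47 ± 0.09 in culture (adjusted p = 0.000124) and by 0.31 ± 0.09 with IL-1b (adjusted p = 0.00952). The IL-1b step was 0.36 after GC and length correction (adjusted p = 0.00376), the 1 member still called there, but it was not called without cultured replicate 1 or 2 (adjusted p up to 0.0608). It was also not called under scaling by library size alone (0.20, where the median of all genes was -0.12) or on log2(TPM + 1) (0.03, where that median was -0.25). Tef fell by 0.25 ± 0.09 at each step, with adjusted p = 0.0159 for culture and 0.0358 for IL-1b. Both Tef calls were easily lost: that for culture without fresh replicate 2 or cultured replicate 1 (adjusted p up to 0.123), that for IL-1b without cultured replicate 1, 2 or 3 or IL-1b replicate 2 (adjusted p up to 0.141), and both after GC and length correction (0.01 and -0.11).

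Dbp shares 539 exon bases with Sphk2, a sphingosine kinase gene on the opposite strand, and its estimated counts held fractions in all 9 libraries. Nr1d1 was the other member with fractions in all 9, and the remaining 8 members had whole counts throughout. Sphk2 was 59.6 ± 1.52, 48.2 ± 1.79 and 41.9 ± 6.16 CPM (SD, n = 3) in fresh, cultured and IL-1b cells. It fell in culture (-0.31 ± 0.08, adjusted p = 0.00279) and did not pass the test for IL-1b minus cultured (-0.21 ± 0.09, adjusted p = 0.0763), where the groups overlapped. How reads of the shared stretch were divided was not tested.

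**Figure D3:**
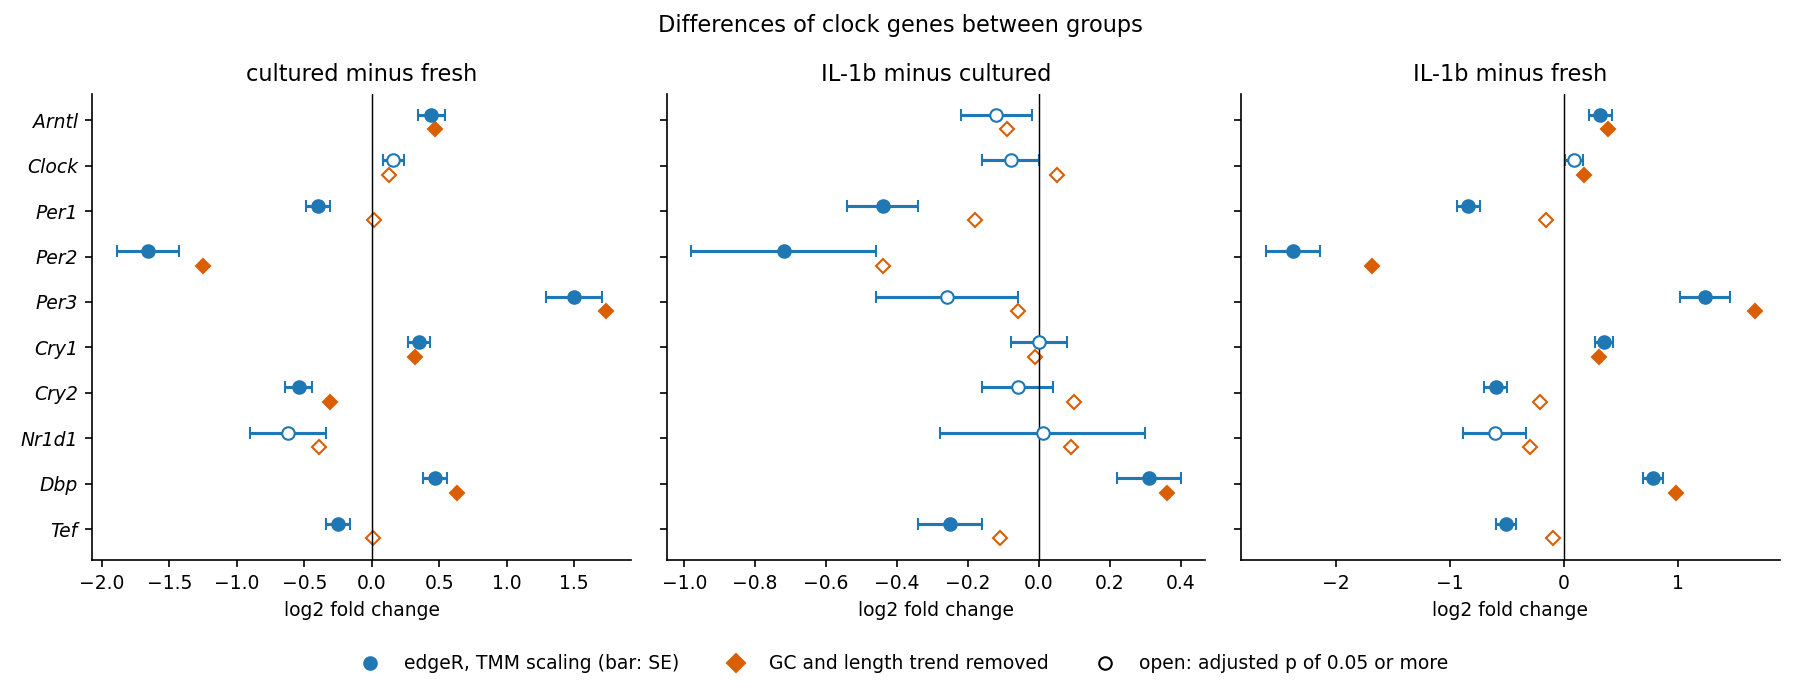
Log2 fold changes of the 10 clock genes in the 3 comparisons (horizontal axes). Blue circles with SE bars are the edgeR estimates with TMM scaling, orange diamonds the estimates after GC and length correction, and open symbols did not pass the threshold; Per1 and Tef move to near 0 under the correction for cultured minus fresh (0.02 and 0.01), while Per2 and Per3 keep differences of -1.25 and 1.74.

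Over both steps together, IL-1b-treated cells differed from fresh cells by -0.84 ± 0.10 for Per1 (adjusted p = 5.8e-08), -0.51 ± 0.09 for Tef (adjusted p = 2.53e-05), 0.78 ± 0.09 for Dbp (adjusted p = 7.59e-08) and 1.24 ± 0.22 for Per3 (adjusted p = 2.67e-05). Nr1d1 at -0.61 ± 0.28 (adjusted p = 0.0593; 0.0479 with DESeq2) and Clock at 0.09 ± 0.08 (adjusted p = 0.328) did not pass, and Clock turned to -0.48 on log2(TPM + 1) and -0.08 by library size alone. The Per3 rise was not called on log2(TPM + 1) (0.40, adjusted p = 0.0679). The Tef difference was not called after GC and length correction (-0.10, adjusted p = 0.341).

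The per-length scale placed most members lower, and the medians of all genes as well. On log2(TPM + 1), all genes had a median of -0.19 for cultured minus fresh, -0.25 for IL-1b minus cultured and -0.45 for IL-1b minus fresh. For cultured minus fresh Per1 was -0.66, Tef -0.43, Dbp 0.25 and Per3 0.77, and each was still called. Cry1 at 0.26 (adjusted p = 0.146) and Arntl at 0.10 (adjusted p = 0.515) were not. Nr1d1 was called at -0.55 (adjusted p = 0.0144), which is less low than its -0.62 with TMM. For IL-1b minus cultured Per1 was -0.68 and Tef -0.62, and Arntl, Clock and Cry2, which did not pass with TMM, were called lower at -0.40, -0.36 and -0.38. For IL-1b minus fresh Per1 was -1.34, Tef -1.05, Cry2 -1.04 and Dbp 0.28.

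Because these differences depend on the scale, 5 ratios of related clock genes were taken from the counts within each library. In a ratio a factor common to the whole library cancels, but terms that differ between genes, such as GC content and length, do not. The ratios were not corrected for these terms. For cultured minus fresh, GC and length correction moved Per1 from -0.40 to 0.02 and Tef from -0.25 to 0.01. The pairs were chosen after the data were seen, and with 3 libraries against 3 the smallest p an exact two-sided permutation test can give is 0.1. Where the first gene of a pair lay higher and the second lower without overlap, the ratio had to separate the groups at that p. This held for fresh against cultured cells in every pair but Per2 to Per1. Those ratios restate the differences of the single genes and are no separate test of them. Per3 to Per1 was 0.0589, 0.0529 and 0.079 in fresh libraries, 0.237, 0.30 and 0.173 in cultured ones and 0.26, 0.26 and 0.276 with IL-1b. It was higher in all 6 cultured libraries than in any fresh one, by 1.88 on the log2 scale for culture alone (exact permutation p = 0.1). Cry1 to Cry2 was 1.26, 1.27 and 1.23 in fresh, 2.57, 2.26 and 2.14 in cultured and 2.5, 2.44 and 2.34 in IL-1b libraries, a log2 difference of 0.89 for culture (exact permutation p = 0.1) and 0.06 for IL-1b (exact permutation p = 0.5). Both ratios thus separated fresh from cultured cells and did not separate the 2 cultured groups. Per2 to Per1 was 0.215, 0.196 and 0.31 in fresh, 0.12, 0.0832 and 0.0938 in cultured and 0.0609, 0.0621 and 0.128 in IL-1b libraries, with overlap of the last 2 groups.

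Dbp to Tef was the ratio that separated all 3 groups, which follows from Dbp rising and Tef falling without overlap at each step. It was 0.646, 0.547 and 0.605 in fresh, 0.947, 0.896 and 1.10 in cultured and 1.38, 1.67 and 1.34 in IL-1b libraries. The log2 difference was 0.71 for culture and 0.57 for IL-1b, each at the smallest p the exact permutation test allows, 0.1. Nr1d2 to Nr1d1, the 2 REV-ERB genes, was 12, 10.2 and 8.72 in fresh libraries, 25.8, 28.2 and 30.5 in cultured libraries and 34.0, 24.6 and 31.2 with IL-1b. The log2 difference was 1.46 for culture (exact permutation p = 0.1) and 0.08 for IL-1b (exact permutation p = 0.7).

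**Figure D4:**
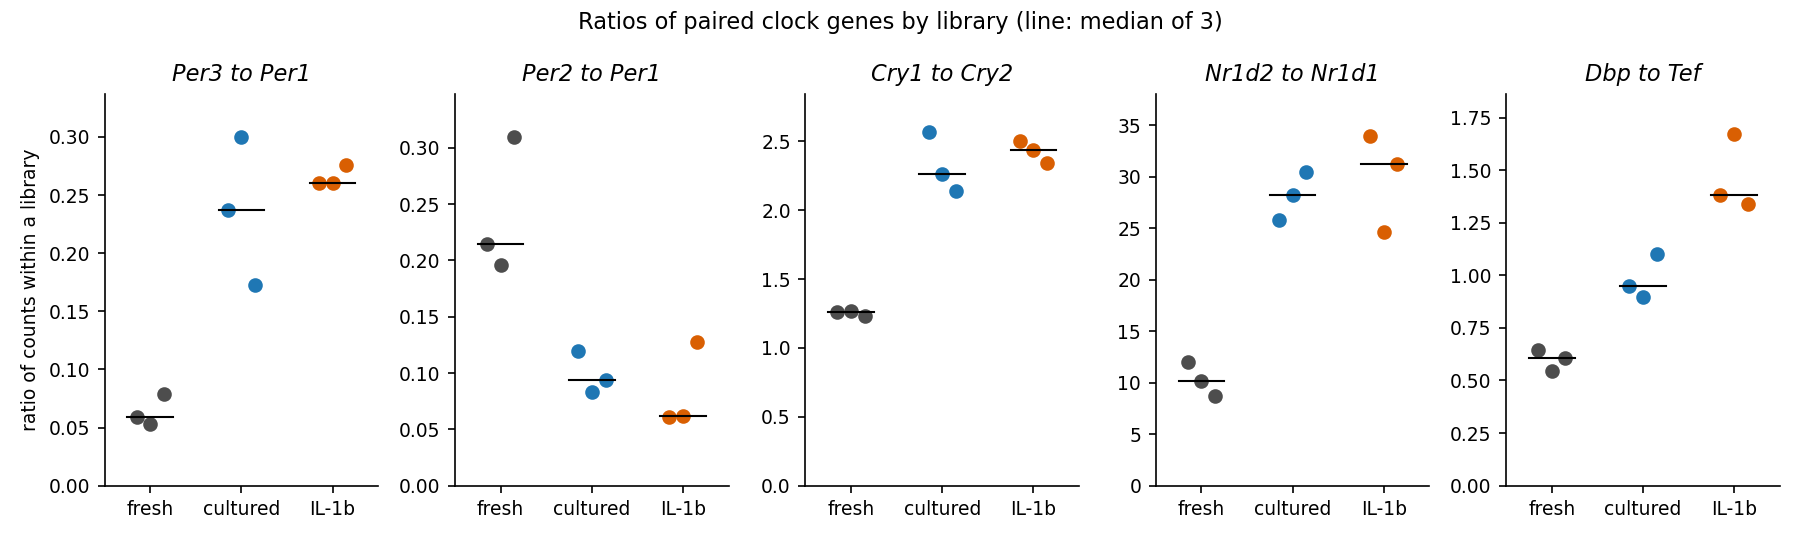
Ratios of counts of 2 clock genes within each library (vertical axes from 0) in fresh, cultured and IL-1b groups; points are libraries and the line is the median of 3. Dbp/Tef separates all 3 groups (0.547 to 0.646, 0.896 to 1.10 and 1.34 to 1.67), as Dbp rises and Tef falls without overlap. The other 4 ratios separate fresh libraries from the rest only.

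Levels of different genes were compared as TPM, the per-length level that RSEM gives. In fresh cells the order of the medians was Dbp (31.5 TPM), Tef (24.3), Cry1 (21.7), Per1 (18.9), Arntl (14.3), Cry2 (13.0), Clock (8.96), Per2 (3.82), Nr1d1 (2.98) and Per3 (0.88). Ranges overlapped between Tef and Cry1 and between Arntl and Cry2, and Per2 overlapped Nr1d1 through fresh replicates 2 and 3. Through fresh replicate 1, at 17.1 TPM, the range of Per2 also overlapped those of Clock, Cry2, Arntl and Per1 (lowest 17.04 TPM). Dbp also led in cultured cells (35.7 TPM) and with IL-1b (37.3 TPM), without overlap with the next gene. Cry1 came second in both, at 25.6 and 20.3 TPM. Per2 was last in both, at 0.88 and 0.37 TPM. Per1 was at 11.1 TPM in cultured cells and 6.36 with IL-1b, where its range overlapped those of Clock and Cry2. Per3 and Nr1d1 overlapped in both cultured groups.

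The wider clock list held 28 further genes, of which 21 passed the filter. Between fresh and cultured cells 6 rose and 6 fell, which is 57.1% of those tested, near the 58.2% of all genes. Both tested nuclear receptors of this wider list rose: Nr1d2 (REV-ERB beta) from 41.1 to 73.4 CPM (0.84 ± 0.07, adjusted p = 2.99e-10) and Rora, the activator of Arntl, from 9.03 to 16.6 CPM (0.88 ± 0.13, adjusted p = 5.19e-06). The member Nr1d1, of the same side loop, was at -0.62 ± 0.28 and did not pass. Rora was not called on log2(TPM + 1), at 0.34 (adjusted p = 0.169). The kinase gene Csnk1e rose by 0.34. The repressor subunit gene Hdac3 (0.32) and Nono, whose product binds PER proteins (0.25), also rose. Nono, Csnk1e and Hdac3 were not called on log2(TPM + 1) either, at -0.02, 0.03 (adjusted p = 0.815) and 0.16 (adjusted p = 0.0549), nor was Csnk1e with the effective length offset (0.27, adjusted p = 0.0573).

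The 6 that fell were mostly cofactors and kinases. Ncor1, the corepressor used by NR1D1, fell from 588 to 391 CPM (-0.59 ± 0.03, adjusted p = 3.38e-14), and the coactivators Ep300 and Crebbp fell by 0.57 and 0.40. Timeless fell from 57.9 to 39.2 CPM (-0.57), and the kinases that phosphorylate PER proteins and other clock proteins, Gsk3b and Csnk1d, fell by 0.41 and 0.20. For Csnk1d the difference was 0.00 after GC and length correction, while Timeless was -0.26, Crebbp -0.22 and Csnk1e 0.62, all still called. On log2(TPM + 1) Ncor1 was -0.92, Timeless -0.93, Gsk3b -0.75 and Csnk1d -0.46. With IL-1b against culture alone, 2 of 21 rose and 5 fell, or 33.3% against 28.9% of all genes. Nampt, an enzyme of NAD synthesis and a clock output, rose from 33.8 to 44.1 CPM (0.39 ± 0.09, adjusted p = 0.00196) and Nono passed at 0.11. Crebbp, Ep300, Ncor1, Gsk3b and Csnk1d fell by 0.37, 0.36, 0.28, 0.19 and 0.15. The last was called in 1 of 9 fits that left out a library, and Gsk3b and Csnk1d were not called after GC and length correction (-0.09 and -0.02). Under that correction Crebbp was -0.18 and Ep300 -0.23, both still called, and on log2(TPM + 1) Crebbp was -0.60, Ep300 -1.0, Ncor1 -0.52, Gsk3b -0.58 and Csnk1d -0.48. With the effective length offset Crebbp (-0.30, adjusted p = 0.0837), Ncor1 (-0.21, adjusted p = 0.122), Gsk3b (-0.30, adjusted p = 0.0731) and Csnk1d (-0.17, adjusted p = 0.178) were not called for IL-1b minus cultured. Crebbp was not called there for cultured minus fresh either (-0.21, adjusted p = 0.139). Nono was 0.11 ± 0.03 with TMM, 0.13 with that offset (adjusted p = 0.053, not called) and 0.00 by library size alone, and turned to -0.18 on log2(TPM + 1). Nampt was 0.14 on that scale (adjusted p = 0.402) and was not called.

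Of the 28 genes, 7 were too low to test, among them Npas2, Arntl2, Rorb, Bhlhe41 and Hlf. Rorb had 0 counts in every library, and Npas2, the stand-in for CLOCK in other tissues, reached at most 0.31 CPM. Hlf, the remaining PAR bZIP gene, was at 0.25 to 0.49 CPM in fresh libraries, 0.06 to 0.25 in cultured libraries and 0 with IL-1b, all near the floor of 3 counts. IL-1b against fresh cells gave 7 of 21 higher and 8 lower, 71.4% against 65.5% of all genes.

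**Figure D5:**
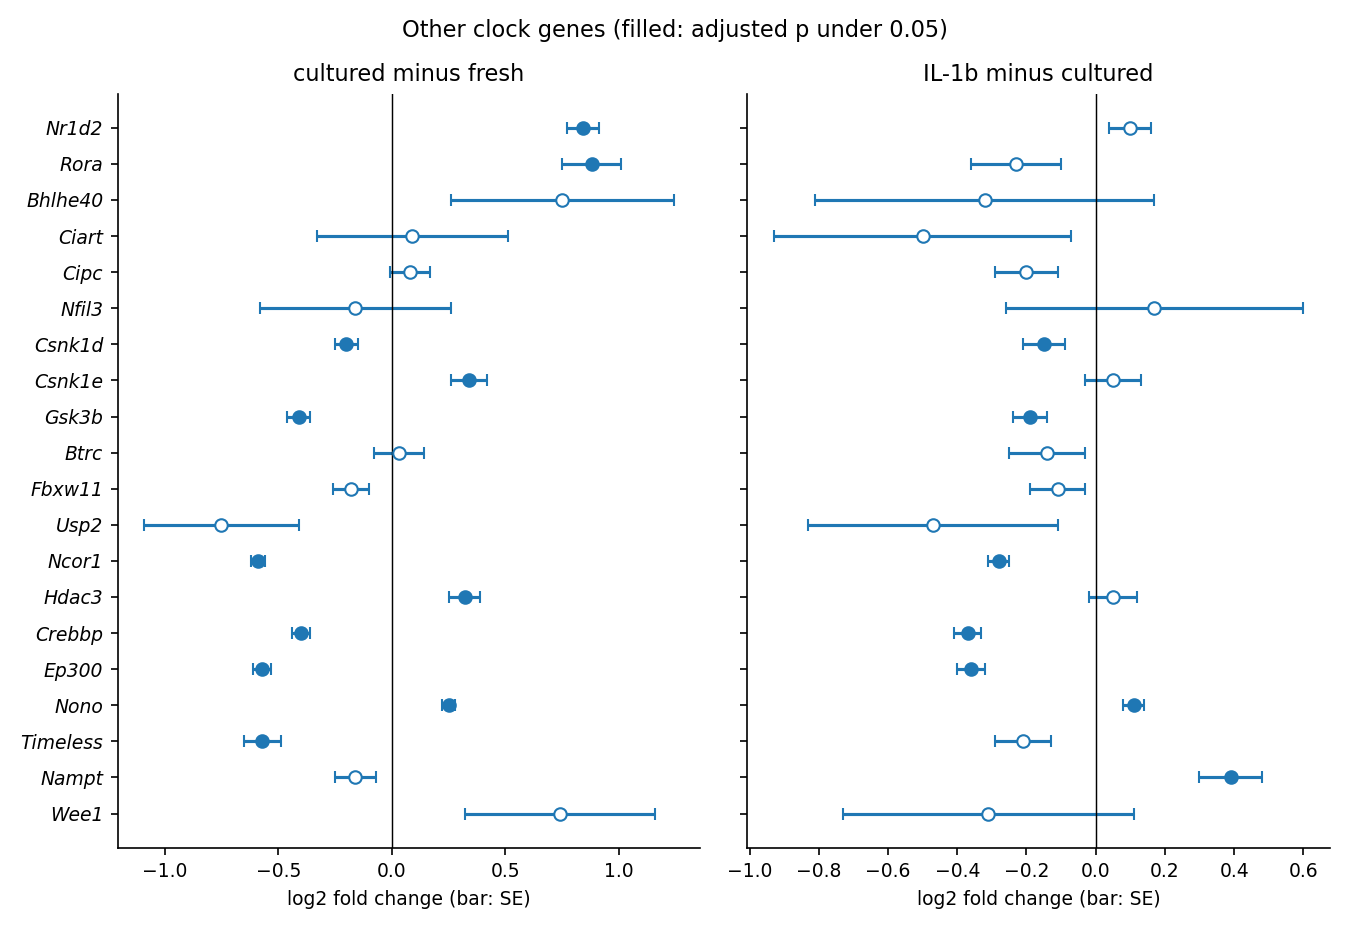
Log2 fold changes with SE of tested genes of the wider clock list, for cultured minus fresh and IL-1b minus cultured. Filled circles passed the threshold; Nr1d2 and Rora rise most clearly in culture (0.84 and 0.88), Ncor1, Ep300 and Crebbp lie below 0 in both comparisons, and Nampt rises with IL-1b (0.39).

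Per1 and Per2 can also answer acute signals, so genes of those routes were described beside them. Of 10 immediate early genes driven by CREB or SRF, 8 fell and 1 rose between fresh and cultured cells, with a median of -2.53, where 28.9% of all genes fell and 29.4% rose. Junb went from 402 to 55.9 CPM (-2.85 ± 0.06, adjusted p = 1.89e-20), Fos from 139 to 19.4 CPM (-2.84 ± 0.07, adjusted p = 3.45e-19) and Egr1 from 63.7 to 3.77 CPM (-4.07 ± 0.13, adjusted p = 1.39e-17). With IL-1b against culture alone 1 of the 10 passed the test, where 28.9% of all genes did (15.6% higher and 13.3% lower). It was again Crem, which rose by 0.45 ± 0.10 (adjusted p = 0.001). Of 8 genes induced by glucocorticoids, 7 were tested: in culture 2 rose and 4 fell, with a median of -0.16, against the same shares of all genes. Tsc22d3 (GILZ) rose from 170 to 365 CPM (1.10 ± 0.04, adjusted p = 2.31e-17), while Ddit4 fell from 104 to 12.8 CPM (-3.03 ± 0.10, adjusted p = 2e-17) and Sgk1 from 67.5 to 26.8 CPM (-1.33 ± 0.08, adjusted p = 7.89e-13). With IL-1b against culture alone 2 of the 7 rose and 1 fell, where 15.6% of all genes rose and 13.3% fell.

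Genes with the pattern most like 3 of the members over the 9 libraries, by Pearson's r of log2 CPM, were listed as a description. For Dbp they were Pfdn6 (r = 0.992), Ndufb11 (0.988) and Wdr55 (0.987). For Arntl they were Mir22hg (0.979), Errfi1 (0.974) and Pld3 (0.962), and for Per1 Ficd (0.990), Cox18 (0.981) and Lrch3 (0.979). The 9 libraries form 3 groups, so any gene with the same order of group means scores high.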

How the data were processed

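RNA was measured in 9 libraries, 3 per group, prepared with a directional kit per the labels' protocols. The submitters' processing notes name STAR, RSEM and the mm10 build, with versions, strand setting and replicate handling not given in the sources used here. The authors deposited 1 table per library with expected counts and TPM per gene, and effective lengths. FPKM values were deposited by the authors in the same tables and were not used. Of all count values, 5.83% were not whole. Symbols, GC content and coordinates came from GENCODE M21 (GRCm38, the mm10 build) for 55141 of 55487 identifiers, and promoters from RefSeq (GRCm38.p6).

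Expected counts were rounded and fitted over all 9 libraries with edgeR 4.0.16 (TMM, filterByExpr, quasi-likelihood F test, group as the only term). Alternatives used limma 3.58.1, DESeq2 1.42.0 and mgcv 1.9.3 in R 4.3.3. The edgeR steps were tested on simulated data with few changed genes or with a trend on GC content alone. Those data do not show how the steps behave where most genes differ, as for cultured minus fresh. Depth ran from 13518814 to 23056686 counts; intervals on fold changes are at the 95% level.

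The members and lists were chosen with earlier results of these data known. Named genes are the 10 members, the other clock genes called in cultured minus fresh or IL-1b minus cultured, the 3 of each acute-signal list with the smallest adjusted p in culture, and the 3 genes most correlated with each of Dbp, Arntl and Per1 (gene models without a proper symbol left out). Some genes that this rule names are counted but not reported here by name. The within-library ratios were added after seeing the data. Myeloid markers summed to 40.5 to 45.6, 43.5 to 45.8 and 59.1 to 66.7 CPM in fresh, cultured and IL-1b libraries, CD8 and NK markers to 73.6 to 85.0, 59.3 to 74.2 and 69.3 to 77.3, and erythroid markers to 1.74 to 7.96, 0.187 to 0.743 and 0.0601 to 0.359. The myeloid sum was carried by Cst3 (22.3 CPM in fresh and 39.9 in cultured cells), while Lyz2 went from 8.67 to 0.083 and Csf1r from 2.83 to 0.124, and in the CD8 and NK sum Cd8a went from 10.3 to 23.1 and Prf1 from 52.2 to 11.7. Replicates of a group differed by more than sampling noise (chi-square per gene 2.97 to 5.76).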

Additional observations from a re-analysis of the deposited data

How the results depend on the processing

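Values are given for cultured minus fresh, IL-1b minus cultured and IL-1b minus fresh in that order unless a comparison is named; the cause of each change was not tested. Requiring an absolute log2 difference of at least 1 as well left 2, 0 and 2 members, 0, 0 and 1 other clock genes and 1654, 116 and 2563 of all genes, against 7594, 3768 and 8539 without it. An effective length offset left 2 members, 2 other clock genes and 2151 of all genes for IL-1b minus cultured. Removing the GC and length trend left 1 member and 2621 of all genes called there, and 1 and 2530 with the replicate block. Leaving out 1 library at a time gave 7 to 9, 1 to 4 and 7 to 9 members, 12 to 13, 6 to 8 and 14 to 16 other clock genes, and 7035 to 7835, 3024 to 3698 and 8109 to 8539 of all genes.

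No pairing of the libraries by replicate number was seen: same-numbered libraries had deviations correlated at -0.022 to 0.019, others at -0.051 to 0.033. The library's own number was highest in 6 of 18 cases. Such a check cannot show whether same-numbered libraries shared an animal or a preparation. With the replicate block 8, 4 and 8 members and 7485, 3652 and 8454 of all genes were called.

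Values that changed sign for cultured minus fresh were Per1 (0.02 after GC and length correction, 0.03 with the block as well), Tef (0.01 in both) and, on log2(TPM + 1) and log2(TPM + 0.1), Clock (-0.13 and -0.14) and Nono (-0.02 on each). For IL-1b minus cultured they were Cry1 (0.00 with limma-voom, -0.05 to 0.05 without single libraries), Cry2 (0.10 with the trend removed) and Clock (0.05 likewise). Nr1d1 gave -0.01 with upper quartile scaling, -0.11 by library size, -0.13 and -0.20 on the TPM scales, and -0.09 to 0.07 without single libraries. Nono gave 0.00 by library size and -0.18 and -0.19 on the TPM scales. For IL-1b minus fresh they were, on the TPM scales, Cry1 (-0.08 and -0.09), Arntl (-0.31 and -0.33) and Clock (-0.48 and -0.54), with Clock at -0.08 by library size.

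Scaling moved the balance of directions over all genes. For IL-1b minus cultured, 1191 genes were called higher and 3273 lower by library size, 289 and 4452 on log2(TPM + 1), and 2032 and 589 with the trend removed. For cultured minus fresh log2(TPM + 1) gave 1877 and 4842. For IL-1b minus fresh the counts were 3408 and 5281 by library size, 1527 and 7113 on log2(TPM + 1), and 4571 and 3386 with the trend removed. Depth limits Per2, Per3 and Nr1d1, which had 99 to 622 counts a group.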
